A study of Mus musculus with 35 samples.

Results

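The genes described here were 8 members of the interleukin-1 system, selected by symbol out of 47069 gene identifiers in the expression tables. They comprised the agonists Il1a, Il1b and Il18, the antagonist Il1rn, the decoys Il1r2 and Il18bp, the signalling receptor Il1r1 and its accessory chain Il1rap. All 8 had 1 identifier each. The series compared glucocorticoid and inflammatory treatments by measuring RNA in 35 libraries of mouse bone marrow-derived macrophages (BMDMs) on the C57BL/6 background, 17 labelled wild-type and 18 labelled AMPKa1-/-. Every culture was grown from marrow in medium with 30% L929 fibroblast conditioned medium and treated for 24 h with 1 of 6 conditions, namely vehicle (DMSO), 100 nM dexamethasone (Dex, a synthetic glucocorticoid), 100 ng/ml lipopolysaccharide (LPS, the Toll-like receptor 4 ligand of bacterial walls), LPS + Dex, 1 µg/ml damage-associated molecular patterns (DAMPs, whose makeup the labels do not give) and DAMPs + Dex. Each group had 3 libraries except wild-type LPS, which had 2 (replicates 2 and 3), since replicate 1 was not analysed here. The Prkaa1 gene, which encodes AMPKa1, was at 15.9, 11.8 and 15.3 FPKM (fragments per kilobase, relative to library size) in wild-type vehicle and at 14.8, 16.5 and 15.4 FPKM in the libraries labelled AMPKa1-/-. In Dex it was at 26.1, 23.2 and 19.1 FPKM and at 21.4, 14.0 and 20.4 FPKM, and in LPS at 15.3 and 10.4 FPKM and at 9.05, 11.2 and 10.5 FPKM. The groups of the 2 labels overlapped in each of these treatments, and because the labels do not say which part is deleted, the Prkaa1 level does not check the genotype. Fragments per library, recovered from the steps between low FPKM values, ranged from 15837203 to 31955298 with a median of 19973568.

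Interleukin-1α and interleukin-1β signal through IL-1R1 paired with IL-1RAP, and macrophages are a main source of both. The response is restrained at several points, by the receptor antagonist IL-1Ra (Il1rn), which occupies IL-1R1 without signalling, by the decoy receptor IL-1R2, which binds ligand without transmitting a signal, and, for interleukin-18, by the soluble binding protein IL-18BP. Interleukin-1β and interleukin-18 are made as precursors that caspase-1 cleaves in the inflammasome, so the RNA levels described here do not measure released cytokine.

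On GRCm38, Il1a (chr2:129299610-129309972), Il1b (chr2:129364570-129371139) and Il1rn (chr2:24336853-24351494) lie on chromosome 2, the first 2 on the minus strand. Il1r2 (chr1:40074079-40125231) and Il1r1 (chr1:40225080-40317257) are on the plus strand of chromosome 1, Il1rap (chr16:26581704-26730117, plus) on chromosome 16, Il18 (chr9:50554827-50581840, plus) on chromosome 9 and Il18bp (chr7:102014885-102018690, minus) on chromosome 7. Exons of 4 members overlap exons of another gene, by 222 bases for Il1a, 25 for Il1b, 552 for Il1rap and 80 for Il18bp, and whether the counting used strand is not given in the sources used here. The strongest responders to LPS and Dex below were Il1a, Il1b and Il1rn, so the 250 bases before their RefSeq start sites (GRCm38.p6) are shown, 5′ to 3′ on the gene's strand, with capitals for matches to the searched motifs. Il1a is from chr2:129309973-129310222 (minus), Il1b from chr2:129371140-129371389 (minus), and Il1rn from chr2:24336610-24336859 and chr2:24345121-24345370 (plus), the first and the last of its 3 start sites, whose windows held a match. The window of the second, chr2:24345041-24345290, overlaps the last and held none.
Il1a: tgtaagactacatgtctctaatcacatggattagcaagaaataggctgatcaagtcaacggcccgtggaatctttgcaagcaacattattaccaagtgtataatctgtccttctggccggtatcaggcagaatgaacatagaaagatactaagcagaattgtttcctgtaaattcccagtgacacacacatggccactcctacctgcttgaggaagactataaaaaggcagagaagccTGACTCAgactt
Il1b: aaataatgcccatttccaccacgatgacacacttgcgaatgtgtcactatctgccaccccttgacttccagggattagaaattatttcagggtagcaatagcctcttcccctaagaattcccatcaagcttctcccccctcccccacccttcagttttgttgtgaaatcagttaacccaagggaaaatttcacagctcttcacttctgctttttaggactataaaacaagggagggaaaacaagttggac
Il1rn, first start: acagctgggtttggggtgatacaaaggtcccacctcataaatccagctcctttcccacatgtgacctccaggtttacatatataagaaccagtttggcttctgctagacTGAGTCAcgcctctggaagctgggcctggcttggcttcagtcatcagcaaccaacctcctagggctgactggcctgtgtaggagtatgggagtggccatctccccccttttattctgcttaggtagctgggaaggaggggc
Il1rn, last start: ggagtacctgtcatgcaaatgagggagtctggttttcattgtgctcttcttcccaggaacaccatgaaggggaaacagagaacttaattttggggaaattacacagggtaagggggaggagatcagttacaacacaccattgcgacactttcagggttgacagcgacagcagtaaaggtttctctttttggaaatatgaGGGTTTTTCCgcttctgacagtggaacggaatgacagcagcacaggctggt
The motifs, searched on both strands, were an NF-kB form (GGG, any 3 bases, TTCC), a glucocorticoid receptor form (ACA, any 3 bases, TGT) and an AP-1 form (TGA, any base, TCA). Among 32851 such windows of the genome, 4.65% held the NF-kB letters, 5.84% the glucocorticoid receptor letters and 6.75% the AP-1 letters. The AP-1 letters stood 12 bases before the Il1a start and 141 bases before the first Il1rn start, and the NF-kB letters 51 bases before the last Il1rn start. The Il1b window held none of the 3. Over the 11 windows of the 8 members, 2 held the NF-kB letters, the other being an Il1r1 start, 2 held the AP-1 letters and 0 held the glucocorticoid receptor letters. These are matches of letters, not measured binding sites.

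The libraries carried the RNA of macrophages. Lyz2 (lysozyme) was at 10344 to 35906 FPKM, Adgre1 (F4/80) at 473.8 to 2751 FPKM and Csf1r (the M-CSF receptor) at 196.7 to 683.6 FPKM in every library. Markers of other cells were present to a differing extent. Of the neutrophil list, Ly6g and Retnlg were listed at 0 in 31 and 32 of the 35 libraries, whereas Csf3r was at 17.9 to 127.5 FPKM, S100a8 at 1.09 to 1147 FPKM and Camp at 0 to 132.7 FPKM. Of the fibroblast list, the most abundant gene, Col1a2, was at 0.159 to 11.9 FPKM. No marker of B cells, T and NK cells, dendritic cells or mast cells exceeded 2.7 FPKM in any library. In bulk RNA of this kind, fewer cells of a type and less RNA per cell cannot be told apart.

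The treatments were checked on genes known to respond to them. Fkbp5, a chaperone induced by the glucocorticoid receptor, went from 1.60, 1.92 and 2.23 FPKM in wild-type vehicle to 321, 354.9 and 346.3 FPKM in Dex, and it rose by 6.88 in wild-type and 6.45 under the AMPKa1-/- label on the log2 scale. The receptor targets Tsc22d3 (3.70 and 3.98), Per1 (2.44 and 2.16) and Dusp1 (3.42 and 2.64) also rose with Dex, whereas Zfp36 did not pass (0.23 and −0.10). All 5 LPS response genes rose with LPS in both genotypes, namely Tnf (5.11 and 5.03), Il6 (8.85 and 8.50), Nos2 (6.09 and 5.39), Cxcl10 (8.81 and 8.20) and Ptgs2 (9.70 and 9.50). Prkaa2, the other catalytic AMPK subunit, did not exceed 0.13 FPKM.

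**Figure D1:**
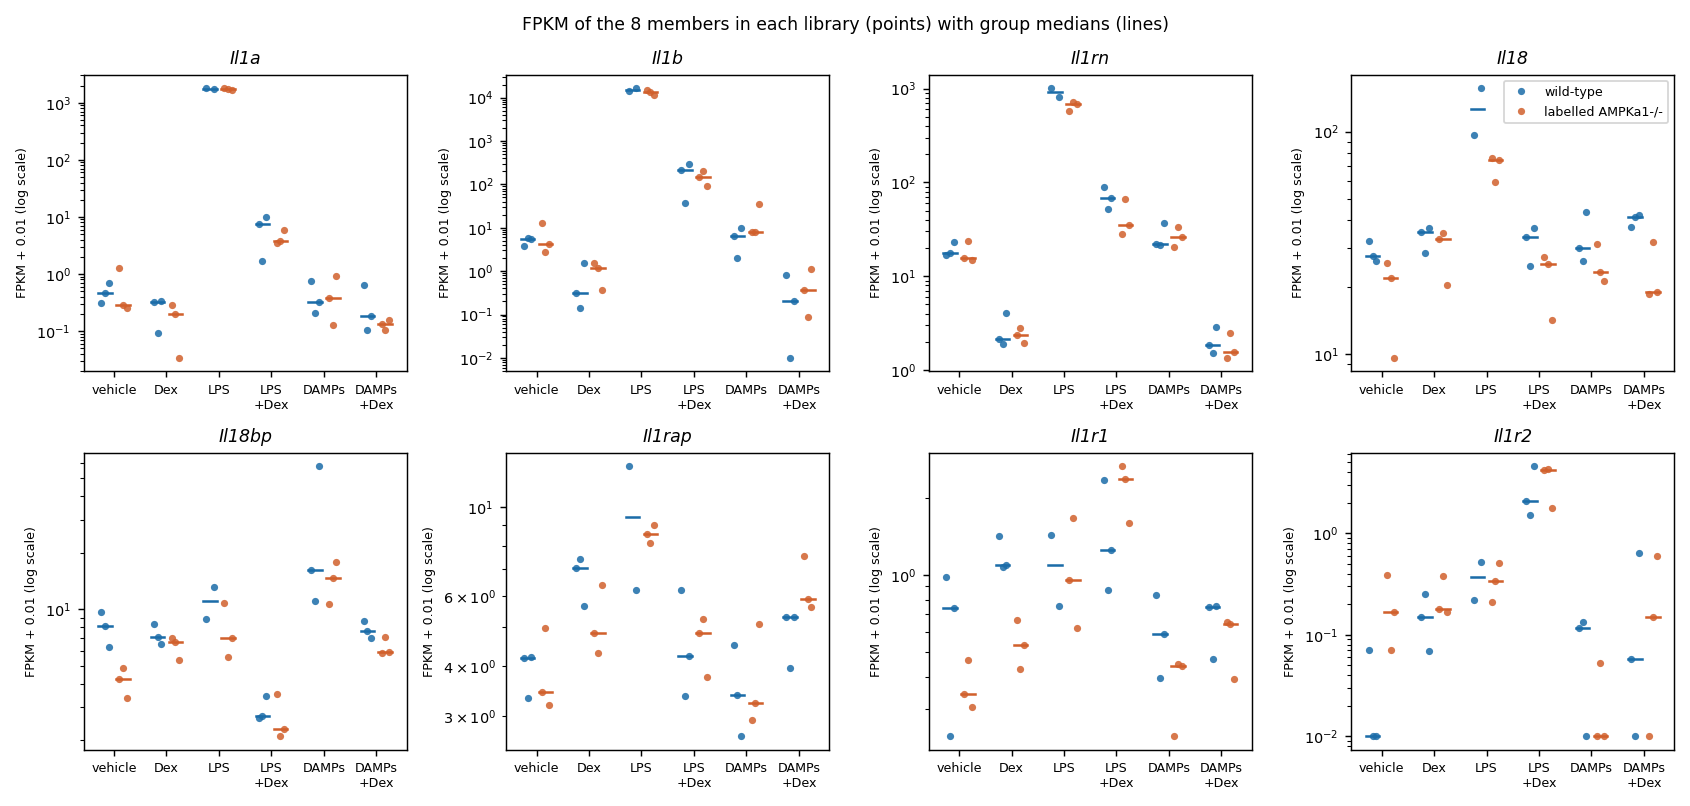
Level of each of the 8 genes in every library, as FPKM plus 0.01 on a log axis, by treatment, with wild-type in blue, libraries labelled AMPKa1-/- in orange and short lines at the group medians. Il1a, Il1b and Il1rn are highest in LPS alone, Il1r2 is highest in LPS + Dex and Il18bp is highest in DAMPs.

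LPS raised both agonists of IL-1R1 from low levels in vehicle. Il1a was at 0.303, 0.452 and 0.685 FPKM in wild-type vehicle and at 1809 and 1729 FPKM in wild-type LPS. In libraries labelled AMPKa1-/-, Il1a was at 1.27, 0.277 and 0.240 FPKM in vehicle and at 1777, 1734 and 1681 FPKM in LPS. The LPS libraries of both genotypes lay within a narrow band far above every vehicle library. The rise of Il1a was 10.23 ± 0.36 in wild-type (log2 fold change of FPKM + 1 ± SE, limma adjusted p = 4.2e-19) and 10.14 ± 0.32 in libraries labelled AMPKa1-/- (adjusted p = 3.0e-20). Il1a passed the filter on mean FPKM, given below, only through its LPS and LPS + Dex libraries. The filter thus favoured these calls and those of Il1a in LPS + Dex. Both rises were also called with no filter.

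Il1b rose likewise. It was at 3.77, 5.67 and 5.45 FPKM in wild-type vehicle and at 13932 and 16653 FPKM in wild-type LPS. In libraries labelled AMPKa1-/- it was at 13.03, 2.70 and 4.23 FPKM in vehicle and at 15096, 13839 and 11233 FPKM in LPS. No vehicle library came near the LPS libraries, and the log2 fold changes of FPKM + 1 were 11.33 ± 0.67 (limma adjusted p = 3.7e-14) and 11.00 ± 0.60 (adjusted p = 4.3e-15).

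The antagonist Il1rn also rose with LPS, by less on the log2 scale than Il1a and Il1b. It was at 16.8, 17.6 and 23.1 FPKM in wild-type vehicle and at 1016 and 817.7 FPKM in wild-type LPS, against 15.7, 23.9 and 15.0 FPKM and then 582.8, 723.2 and 688.2 FPKM in libraries labelled AMPKa1-/-. The groups did not overlap. The rise was 5.51 ± 0.31 (limma adjusted p = 1.6e-14) in wild-type and 5.14 ± 0.28 (adjusted p = 4.2e-15) under the AMPKa1-/- label.

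Il18, which encodes a cytokine of the same family that acts on its own receptor, was expressed in all conditions. It was at 32.4, 27.6 and 26.1 FPKM in wild-type vehicle and at 96.8 and 157.0 FPKM in wild-type LPS, and at 25.8, 21.9 and 9.60 FPKM and then 76.1, 59.1 and 74.4 FPKM in libraries labelled AMPKa1-/-. Every LPS library exceeded every vehicle library, with log2 fold changes of FPKM + 1 of 2.07 ± 0.32 (limma adjusted p = 3.4e-06) and 1.92 ± 0.29 (adjusted p = 1.6e-06). Its binding protein Il18bp did not pass the test, at 0.41 ± 0.37 (adjusted p = 0.37) in wild-type and 0.74 ± 0.33 (adjusted p = 0.053) under the AMPKa1-/- label.

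Of the receptor chains, Il1rap rose with LPS in both genotypes, and the low genes Il1r1 and Il1r2 are described further on. Il1rap was at 4.19, 3.33 and 4.21 FPKM in wild-type vehicle and at 12.6 and 6.19 FPKM in wild-type LPS, the 2 LPS libraries differing from each other more than the vehicle libraries did. In libraries labelled AMPKa1-/- it was at 3.44, 4.98 and 3.19 FPKM and then 8.54, 8.12 and 8.997 FPKM. The log2 fold changes of FPKM + 1 were 1.02 ± 0.24 (limma adjusted p = 8.0e-04) and 0.99 ± 0.22 (adjusted p = 2.7e-04), and without wild-type LPS replicate 2 the wild-type value was 0.56 (adjusted p = 0.1, with 6.4e-06 to 0.1 over all alternatives).

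Of the 8 genes, 6 passed the filter of a mean of at least 1 FPKM, and 5 of these 6 rose with LPS in each genotype. Il1a passed only through the LPS and LPS + Dex libraries (mean of 250.6 FPKM over all libraries and 0.35 without these). The filter thus fixed its place in the count for LPS and in that for LPS + Dex against LPS. Among all 11354 genes tested, 55.7% were called in wild-type (19.9% as higher) and 64.3% in libraries labelled AMPKa1-/- (20.2% as higher), so a call by itself was common. The median log2 fold change of the 6, with Il1a included, was 3.79 and 3.53, against −0.19 and −0.30 over all genes. Including Il1a raised the median of the members, and without it the middle value was that of Il18, given above. That median over all genes lay below 0 in LPS, and log2 fold changes are given without subtracting it. In LPS + Dex against vehicle it was −0.23 and −0.28. Of 6 tested neutrophil markers, 3 were called higher with LPS in each genotype, and 0 and 1 lower. The 11 markers summed to 108.4, 55.2 and 75.8 FPKM in wild-type vehicle and to 288.8 and 231.7 FPKM in LPS. Under the AMPKa1-/- label they summed to 98.6, 71.9 and 74.1 and then 236.3, 232.3 and 244.3 FPKM. Of 4 tested fibroblast markers, 2 (Pdgfrb and Dcn) were called higher in each genotype and 0 lower. The collagens Col1a1 and Col1a2 were not called. The part of such cells in these rises was not tested.

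**Figure D2:**
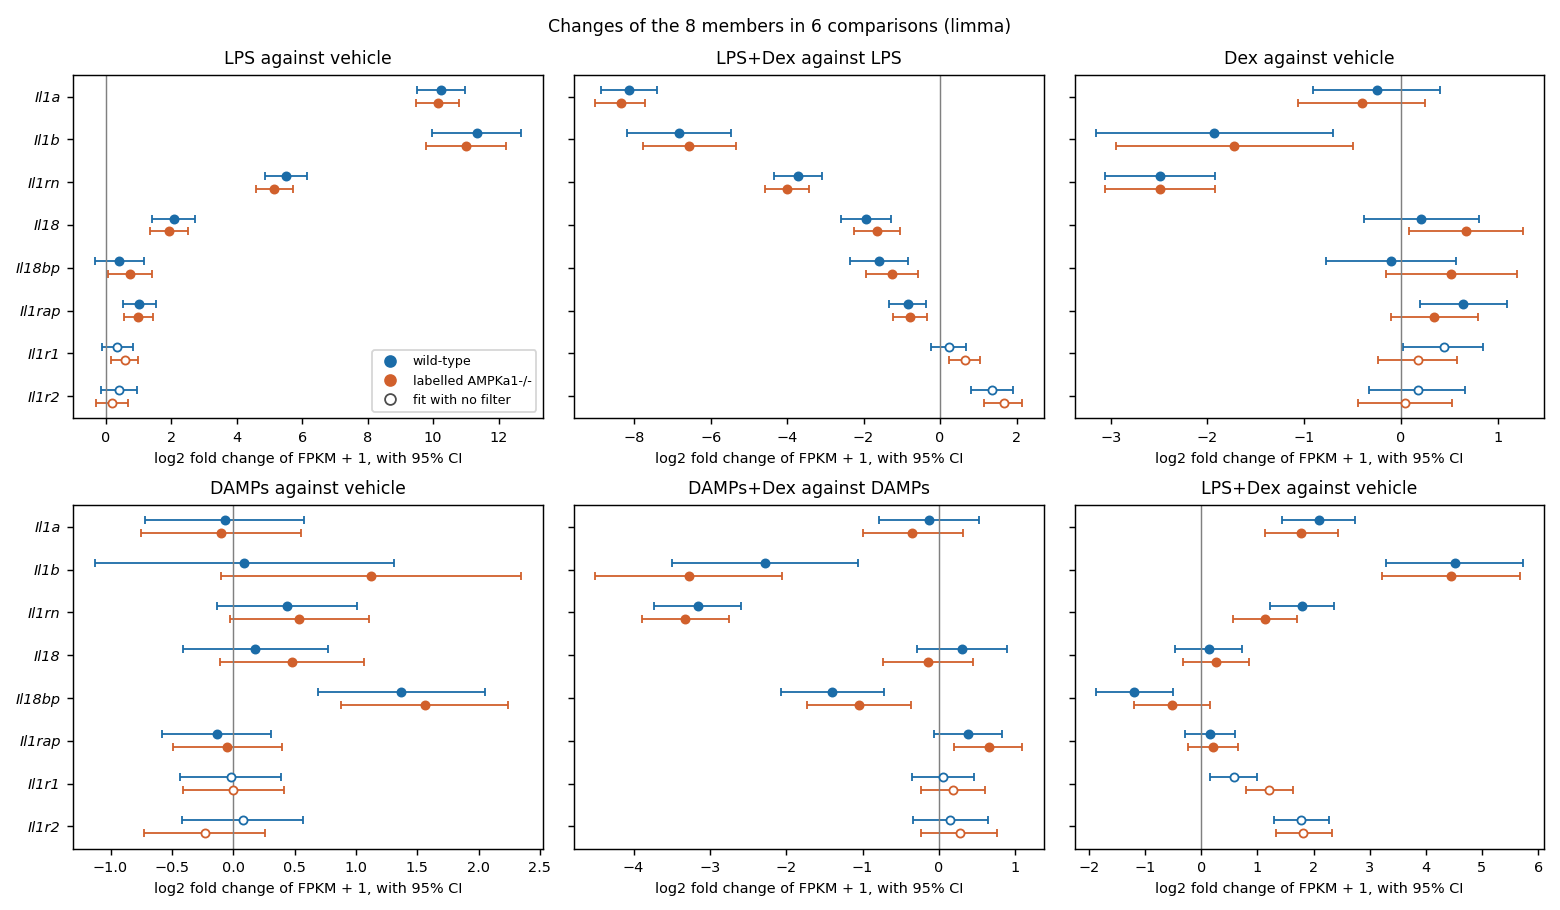
Log2 fold change of FPKM + 1 with its 95% confidence interval for the 8 genes in 6 comparisons, wild-type in blue and libraries labelled AMPKa1-/- in orange, with open points for the 2 genes tested only in the fit with no filter. Il1a, Il1b and Il1rn lie far right of 0 in LPS and far left of 0 in LPS + Dex against LPS, where Il1r2 lies to the right.

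Dex given with LPS lowered all 6 tested members in both genotypes, and the log2 falls of Il1a and Il1b were the largest of the 6. Il1a was at 7.55, 1.65 and 9.79 FPKM in wild-type LPS + Dex and at 3.41, 3.83 and 5.85 FPKM in libraries labelled AMPKa1-/-. These levels stood above all vehicle libraries and far below all LPS libraries. The difference from LPS was −8.14 ± 0.36 (limma adjusted p = 2.1e-16) in wild-type and −8.36 ± 0.32 (adjusted p = 7.2e-18) under the AMPKa1-/- label.

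Il1b in LPS + Dex was at 210.7, 38.2 and 291.6 FPKM in wild-type and at 145.8, 205.5 and 92.1 FPKM in libraries labelled AMPKa1-/-. The differences from LPS were −6.82 ± 0.67 (limma adjusted p = 3.5e-09) and −6.56 ± 0.60 (adjusted p = 6.0e-10). Every LPS + Dex library nevertheless held more Il1b than any vehicle library, by 4.51 ± 0.60 (adjusted p = 3.2e-07) and 4.45 ± 0.60 (adjusted p = 3.6e-07) on the log2 scale.

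Il1rn in LPS + Dex was at 88.7, 52.7 and 68.4 FPKM in wild-type and at 28.1, 67.3 and 34.7 FPKM in libraries labelled AMPKa1-/-. The antagonist thus fell from its LPS level as well, with log2 differences of −3.72 ± 0.31 (limma adjusted p = 1.9e-10) and −4.0 ± 0.28 (adjusted p = 3.0e-12). It also remained above vehicle, by 1.79 ± 0.28 (adjusted p = 3.9e-06) and 1.14 ± 0.28 (adjusted p = 9.8e-04).

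Il18 in LPS + Dex was at 33.7, 24.99 and 36.9 FPKM in wild-type and at 27.2, 25.3 and 14.2 FPKM in libraries labelled AMPKa1-/-, values that overlapped the vehicle libraries. It fell from LPS, with log2 differences of −1.94 ± 0.32 (limma adjusted p = 2.1e-05) and −1.65 ± 0.29 (adjusted p = 3.3e-05). Il18bp was at 2.64, 2.68 and 3.43 FPKM and at 3.51, 2.10 and 2.28 FPKM in LPS + Dex, its lowest level of any treatment in wild-type. It fell from LPS, with log2 differences of −1.60 ± 0.37 (adjusted p = 0.0011) and −1.25 ± 0.33 (adjusted p = 0.0033), and against vehicle it was −1.19 ± 0.33 (adjusted p = 0.0033) in wild-type and −0.52 ± 0.33 (adjusted p = 0.18) under the AMPKa1-/- label.

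Il1rap in LPS + Dex was at 6.19, 3.36 and 4.23 FPKM in wild-type and at 4.82, 5.23 and 3.75 FPKM in libraries labelled AMPKa1-/-. It fell from LPS, with log2 differences of −0.85 ± 0.24 (limma adjusted p = 0.0069) and −0.78 ± 0.22 (adjusted p = 0.0053), and it overlapped vehicle. The wild-type fall was −0.39 (adjusted p = 0.36, with 6.6e-04 to 0.36 over all alternatives) without LPS replicate 2.

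All 6 tested members were called lower in LPS + Dex than in LPS in each genotype, where 34.1% of all genes tested were called in wild-type (17.5% as lower) and 37.7% in libraries labelled AMPKa1-/- (18.4% as lower). Their median log2 fold change, with Il1a included, was −2.83 in both, against −0.03 and 0.01 over all genes. Without Il1a the middle value was that of Il18, given above, which is a smaller fall. Against vehicle, where 54.2% and 57.4% of genes were called, 4 of the 6 passed in wild-type and 3 of the 6 under the AMPKa1-/- label. Il1a was among them in each genotype, and the filter favoured its call there too. These comparisons share the LPS or vehicle libraries and are not independent of each other.

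The decoy receptor Il1r2 went the other way. It was seen as 1, 0 and 0 fragments in wild-type vehicle, 4 and 11 in LPS and 53, 25 and 94 in LPS + Dex, or 2.09, 1.51 and 4.56 FPKM in the last. In libraries labelled AMPKa1-/- it was seen as 8, 1 and 3 fragments in vehicle, 4, 5 and 9 in LPS and 93, 71 and 29 in LPS + Dex, or 4.17, 4.29 and 1.75 FPKM in the last. All 6 LPS + Dex libraries exceeded all other libraries, the highest of which was at 0.626 FPKM.

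Because the mean of Il1r2 over all libraries was under 1 FPKM, it was tested in the fit with no filter on 27414 genes, a choice made after its values were seen. There it rose from LPS to LPS + Dex by 1.37 ± 0.27 (limma adjusted p = 3.8e-04) in wild-type and by 1.66 ± 0.24 (adjusted p = 6.7e-06) under the AMPKa1-/- label, where 18% and 17.7% of genes were called. When only the 2 groups compared entered the fit, the wild-type adjusted p was 0.11, the highest of 9.7e-05 to 0.11 over all alternatives. In the fit on all groups neither LPS alone nor Dex alone changed it by a called amount (log2 differences of 0.04 to 0.41). Its level in vehicle was under the floor of 3 fragments in every wild-type library and at 8, 1 and 3 fragments under the AMPKa1-/- label. The fitted fold therefore depends on the 1 FPKM that was added. With only the 2 groups compared in the fit, the wild-type difference of 0.41 between LPS and vehicle was called (adjusted p = 0.038, with 0.038 to 0.8 over all alternatives).

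Of 11 neutrophil marker genes, 6 passed the filter, and from LPS to LPS + Dex 1 rose and 2 fell in each genotype (34.1% and 37.7% of all genes were called). S100a8, the most abundant in LPS + Dex, rose. It was at 27.0 and 10.6 FPKM in wild-type LPS and at 616.6, 478.1 and 1147 FPKM in LPS + Dex, and under the AMPKa1-/- label at 33.0, 24.1 and 17.4 FPKM and then 307.1, 301 and 580.8 FPKM. The whole list summed to 288.8 and 231.7 FPKM in wild-type LPS and to 687.7, 544.1 and 1224 FPKM in LPS + Dex, and to 236.3, 232.3 and 244.3 and then 375.8, 360 and 643.4 FPKM under the AMPKa1-/- label. Csf3r, the receptor of a neutrophil growth factor, fell from 127.5 and 105.7 FPKM in wild-type LPS to 35.2, 32.9 and 24.2 FPKM in LPS + Dex, and Camp, a granule peptide, from 132.7 and 112.9 to 34.8, 32.9 and 52.1 FPKM. The log2 differences were −1.90 (limma adjusted p = 1.1e-08) and −1.62 (adjusted p = 3.1e-04), and under the AMPKa1-/- label −1.83 (adjusted p = 2.0e-09) and −1.84 (adjusted p = 1.2e-05). S100a9 was at 1.458 and 2.197 FPKM in wild-type LPS and at 1.032, 0.2106 and 0.3382 FPKM in LPS + Dex. Under the AMPKa1-/- label it was at 14.46, 6.65 and 2.826 FPKM and then 11.33, 2.635 and 1.994 FPKM. In LPS + Dex, Ngp did not exceed 0.05809 FPKM in wild-type and 3.563 FPKM under the AMPKa1-/- label. Ltf did not exceed 0.05212 and 0.5328 FPKM there. S100a8 thus made up most of the list sums in LPS + Dex. Ly6g, Retnlg, Cxcr2, Mpo and Elane did not exceed 0.475 FPKM in any library. The part of neutrophil RNA in the Il1r2 result was not tested.

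Il1r1, the signalling receptor, was expressed at a low level throughout. It was at 0.968, 0.225 and 0.729 FPKM in wild-type vehicle, 1.42 and 0.747 in LPS and 2.33, 0.864 and 1.24 in LPS + Dex. Under the AMPKa1-/- label it was at 0.333, 0.457 and 0.294 FPKM in vehicle, 0.945, 1.66 and 0.610 in LPS and 2.64, 2.35 and 1.58 in LPS + Dex. The wild-type groups overlapped, whereas under the AMPKa1-/- label LPS + Dex was apart from vehicle.

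In the fit with no filter, Il1r1 in LPS + Dex exceeded vehicle by 0.58 ± 0.20 (limma adjusted p = 0.034) in wild-type and by 1.21 ± 0.20 (adjusted p = 2.8e-05) under the AMPKa1-/- label, where 25.3% and 26.5% of genes were called. The wild-type call was lost in 4 of 12 alternatives (adjusted p of 8.3e-04 to 0.26), and the value was 0.34 without LPS + Dex replicate 1 and 0.38 without vehicle replicate 2. Under the AMPKa1-/- label it was also higher in LPS than in vehicle, by 0.58 ± 0.20 (adjusted p = 0.028, where 31.4% of genes were called), and higher in LPS + Dex than in LPS, by 0.64 ± 0.20 (adjusted p = 0.025), a call lost in 6 of 12 alternatives. The LPS call was lost in 4 of 12 (adjusted p of 5.6e-04 to 0.2), with a value of 0.38 without LPS replicate 2. In wild-type these differences were 0.35 ± 0.22 (adjusted p = 0.29, where 29.1% were called) and 0.22 ± 0.22 (adjusted p = 0.69). Fibroblasts, which are known to express Il1r1, had marker RNA in the libraries. The summed level of 6 fibroblast markers was 18.6, 1.52 and 10.1 FPKM in wild-type vehicle, 14.4 and 12.3 in LPS and 11.6, 3.30 and 10.4 in LPS + Dex. It was 1.71, 3.16 and 1.71 FPKM in vehicle under the AMPKa1-/- label, 5.93, 9.14 and 9.76 in LPS and 5.13, 8.32 and 3.27 in LPS + Dex. In wild-type vehicle, replicate 2 was the lowest library for both these markers and Il1r1. In LPS under the AMPKa1-/- label, replicate 3 was the highest for the markers and the lowest for Il1r1. The part of such cells in the Il1r1 values was not tested.

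Without LPS, Dex lowered the antagonist Il1rn and the agonist Il1b. Il1rn was at 2.12, 1.86 and 4.09 FPKM in wild-type Dex and at 2.37, 2.80 and 1.92 FPKM in libraries labelled AMPKa1-/-, below every vehicle library. Its log2 difference was −2.49 ± 0.28 in both genotypes (limma adjusted p = 8.7e-08 and 8.2e-08). Il1b was at 0.311, 0.134 and 1.51 FPKM in wild-type Dex and at 1.56, 1.17 and 0.350 FPKM under the AMPKa1-/- label, and fell, with log2 differences of −1.93 ± 0.60 (adjusted p = 0.015) and −1.73 ± 0.60 (adjusted p = 0.03). The first call was lost in 3 of 14 alternatives (adjusted p of 0.0017 to 0.072), without vehicle replicate 2 or Dex replicate 1 or 2, and with an added 0.1 FPKM the value was −3.22. The second was lost in 5 of 14, and was −1.17 without vehicle replicate 1 (adjusted p = 0.19, with 0.018 to 0.19 over all alternatives).

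Il1a, already under 1.3 FPKM in vehicle, was at 0.318, 0.082 and 0.322 FPKM in wild-type Dex and did not pass, at −0.25 ± 0.32 (limma adjusted p = 0.57) and −0.40 ± 0.32 (adjusted p = 0.38). Il1rap was at 7.01, 7.38 and 5.65 FPKM in wild-type Dex, above all 3 vehicle libraries, and rose by 0.64 ± 0.22 (adjusted p = 0.026). Under the AMPKa1-/- label it was at 4.82, 4.30 and 6.37 FPKM, with a difference of 0.34 ± 0.22 (adjusted p = 0.26). The wild-type rise was lost in 5 of 14 alternatives. Il18 under the AMPKa1-/- label was at 32.9, 34.9 and 20.5 FPKM in Dex, 0.67 ± 0.29 above vehicle (adjusted p = 0.083), and with the replicate number as a block its adjusted p was 0.023. It was also called without vehicle replicate 1 (0.93, adjusted p = 0.027) and without Dex replicate 3 (0.90, adjusted p = 0.035), with 0.023 to 0.54 over all its alternatives, and in both of these Il1b lost its call.

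Of the 6 tested members, 1 rose and 2 fell with Dex in wild-type, where 30.9% of all genes tested were called (14.9% as lower), and 0 rose and 2 fell under the AMPKa1-/- label, where 27.9% were called (16% as lower). Of the 6 tested neutrophil markers Csf3r alone was called with Dex, as lower in both genotypes (−1.19 and −1.25 on the log2 scale), and its part in these results was not tested. Counts of members this small do not set them apart from all genes. The effect of Dex was more negative in the presence of LPS for all 6 in each genotype, a count in which the filter fixed the place of Il1a (the interaction of Dex with LPS, limma, where 32% and 28.4% of genes were called, 17.1% and 12.8% as lower). That difference of differences was −7.89 ± 0.48 (adjusted p = 7.9e-13) and −7.96 ± 0.45 (adjusted p = 1.9e-13) for Il1a, and −1.23 ± 0.42 (adjusted p = 0.025) and −1.51 ± 0.39 (adjusted p = 0.0043) for Il1rn. On the scale of FPKM + 1 a low gene has little room to fall. In vehicle the mean was 0.48 and 0.597 FPKM for Il1a and 4.96 and 6.655 FPKM for Il1b. Neither could fall without LPS as far as it fell with LPS, so the scale set the sign of their interaction in advance. For Il1r2 the difference of differences was positive, at 1.21 ± 0.36 (adjusted p = 0.021) and 1.61 ± 0.34 (adjusted p = 0.0012) in the fit with no filter, where 15.6% and 13.4% of genes were called. With an added 0.1 in place of 1 FPKM the adjusted p for Il1r2 was 0.34 and 0.054, the highest over its alternatives, which started at 0.006 and 8.8e-05, and the wild-type call was lost in 4 of 17. With the same change the Il1rn values were −0.87 (adjusted p = 0.16, with 0.0031 to 0.16 over all alternatives) and −1.15 (adjusted p = 0.054, with 1.7e-04 to 0.054). In wild-type the Il1rn call was lost in 7 of 19 alternatives and that of Il18bp in 5 of 19 (adjusted p of 0.0027 to 0.11), median centring and quantile normalization among them.

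DAMPs raised the interleukin-18 binding protein and, of the 6 tested members, no other. Il18bp was at 9.63, 8.12 and 6.29 FPKM in wild-type vehicle and at 16.2, 11.1 and 57.6 FPKM in wild-type DAMPs. In libraries labelled AMPKa1-/- it was at 4.23, 4.88 and 3.36 FPKM in vehicle and at 10.7, 14.6 and 17.8 FPKM in DAMPs. Every DAMPs library was above every vehicle library of its genotype, and wild-type DAMPs replicate 3 stood far above the rest.

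The rise of Il18bp was 1.37 ± 0.33 (limma adjusted p = 0.026) in wild-type and 1.56 ± 0.33 (adjusted p = 0.0043) under the AMPKa1-/- label. This 1 call of 6 in each genotype stood in a comparison where 2.01% and 4.13% of genes were called (1.22% and 1.89% as higher). Without wild-type DAMPs replicate 3 the wild-type rise was 0.69 (adjusted p = 0.34), it was lost in 6 of 14 alternatives (adjusted p of 8.7e-04 to 0.54), and under the AMPKa1-/- label it was called in all 14. In that replicate 2 other genes, chosen after their values were seen, were also highest, with Fcgr1 (a high-affinity antibody receptor) at 264.1 FPKM against 100.7 and 108.2, and Cxcl10 (an interferon-induced chemokine) at 5.97 FPKM against 1.90 and 1.23. Of the members, Il1b, Il1rn and Il18 were also highest of their group there, Il1rap and Il1r2 were lowest, and Il1a and Il1r1 lay between.

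The agonists did not pass the test in DAMPs. Il1a was at 0.749, 0.195 and 0.318 FPKM in wild-type DAMPs and at 0.365, 0.118 and 0.917 FPKM under the AMPKa1-/- label, overlapping vehicle. Il1b was at 6.38, 2.04 and 10.01 FPKM in wild-type DAMPs and at 8.02, 7.77 and 34.6 FPKM under the AMPKa1-/- label, with a log2 difference of 0.09 (limma, 95% interval −1.13 to 1.31) and 1.12 (−0.10 to 2.34). Il1rn was at 22.2, 21.7 and 37.0 FPKM in wild-type DAMPs and at 20.6, 33.7 and 26.3 FPKM under the AMPKa1-/- label, with adjusted p of 0.79 and 0.41.

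Dex lowered Il1b, Il1rn and Il18bp in DAMPs-treated BMDMs of both genotypes. Il1b was at 0.804, 0 and 0.194 FPKM in wild-type DAMPs + Dex and at 0.357, 0.0782 and 1.09 FPKM under the AMPKa1-/- label, and fell, with log2 differences of −2.28 ± 0.60 (limma adjusted p = 0.0048) and −3.28 ± 0.60 (adjusted p = 1.2e-04). These levels rested on 15, 0 and 5 fragments and on 7, 1 and 15 fragments, and with an added 0.1 in place of 1 FPKM the wild-type value was −4.12. Il1rn was at 1.85, 1.52 and 2.89 FPKM and at 1.34, 2.48 and 1.54 FPKM, and fell, with log2 differences of −3.16 ± 0.28 (adjusted p = 1.0e-09) and −3.32 ± 0.28 (adjusted p = 4.0e-10). Il18bp was at 8.66, 7.65 and 6.97 FPKM and at 5.86, 7.13 and 5.93 FPKM, and fell, with log2 differences of −1.4 ± 0.33 (adjusted p = 0.002) and −1.05 ± 0.33 (adjusted p = 0.019).

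The Il18bp fall was lost in 1 of 14 alternatives in wild-type, the fit on only the 2 groups compared (adjusted p = 0.1, with 6.5e-05 to 0.1 over all alternatives), and in 4 of 14 under the AMPKa1-/- label (0.0018 to 0.082). Without wild-type DAMPs replicate 3 the wild-type fall was smaller, at −0.72, and was still called. For these 3 genes no DAMPs + Dex library reached the DAMPs libraries of its genotype. Il1rap was at 7.52, 5.87 and 5.60 FPKM in DAMPs + Dex under the AMPKa1-/- label and rose by 0.65 ± 0.22 (limma adjusted p = 0.028), a call lost in 5 of 14 alternatives (adjusted p of 0.0083 to 0.14). In wild-type the difference was 0.38 ± 0.22 (adjusted p = 0.22). Of the 6 tested members, 3 were called in wild-type and 4 under the AMPKa1-/- label, where 24.3% and 25.3% of genes were called. The 11 neutrophil markers summed to 85.4, 76.7 and 102.8 FPKM in wild-type DAMPs and to 32.7, 28.1 and 46.95 FPKM in DAMPs + Dex, and to 118.7, 83.8 and 105.8 and then 42.1, 40.6 and 40.8 FPKM under the AMPKa1-/- label, with Csf3r the most abundant throughout. Of the 6 tested, 1 was called lower in wild-type and 3 under the AMPKa1-/- label, and 2 of 4 tested fibroblast markers were called higher in wild-type. Their part in these falls was not tested.

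Within each library, the levels of antagonist and decoys were set against those of agonists and receptor, as described by ratios of FPKM with no test. The ratio of Il1rn to Il1a plus Il1b had a median of 3.77 in wild-type vehicle (2.88 to 4.14) and of 3.35 under the AMPKa1-/- label (1.1 to 8.01). In LPS the median was 0.0545 (0.0445 to 0.0645) and 0.0464 (0.0345 to 0.0533), and in LPS + Dex it was 0.406 (0.227 to 1.32) and 0.322 (0.188 to 0.355). The ratio was lower in every LPS library than in any vehicle library, and the LPS + Dex libraries lay above all LPS libraries, although both antagonist and agonists were lower there. Leaving out 1 library moved the wild-type median in LPS + Dex over 0.317 to 0.863 (highest without replicate 3, and raised by over 1.5 times without replicate 1 too) and that in vehicle under the AMPKa1-/- label over 2.23 to 5.68 (highest without replicate 1).

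The ratio of decoy to signalling receptor, Il1r2 to Il1r1, had a median of 0.417 (0.147 to 0.687) in wild-type LPS and 1.75 (0.899 to 3.69) in LPS + Dex, and of 0.214 (0.198 to 0.824) and then 1.58 (1.11 to 1.83) under the AMPKa1-/- label. The other groups did not all lie below LPS + Dex. Under the AMPKa1-/- label the ratio was 0.133 to 1.14 in vehicle and reached 1.54 in DAMPs + Dex, both overlapping LPS + Dex. Leaving out 1 library moved the median over 0.335 to 0.839 in that vehicle group (lowest without replicate 1, highest without replicate 2), over 0.206 to 0.519 in LPS under the same label (raised by over 1.5 times without replicate 1 or 2) and over 1.32 to 2.72 in wild-type LPS + Dex (highest without replicate 1). The order of vehicle and LPS is thus not settled under the AMPKa1-/- label. In wild-type the vehicle ratio was 0 to 0.0624, below the LPS range, and rested on 1, 0 and 0 fragments of Il1r2. Il18bp to Il18 had its lowest medians in LPS, at 0.0877 and 0.0947, and in LPS + Dex, at 0.093 and 0.129, and its highest in DAMPs, at 0.542 (0.422 to 1.32) and 0.624 (0.341 to 0.838), the former 0.482 to 0.931 when 1 library was left out. The medians in vehicle were 0.294 and 0.223, above those in LPS + Dex. The gene lengths behind the FPKM values were shorter than the merged exons for 7 of the 8 genes (for example 808 against 1907 bases for Il1b), so a ratio above or below 1 does not show which RNA was the more abundant.

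**Figure D3:**
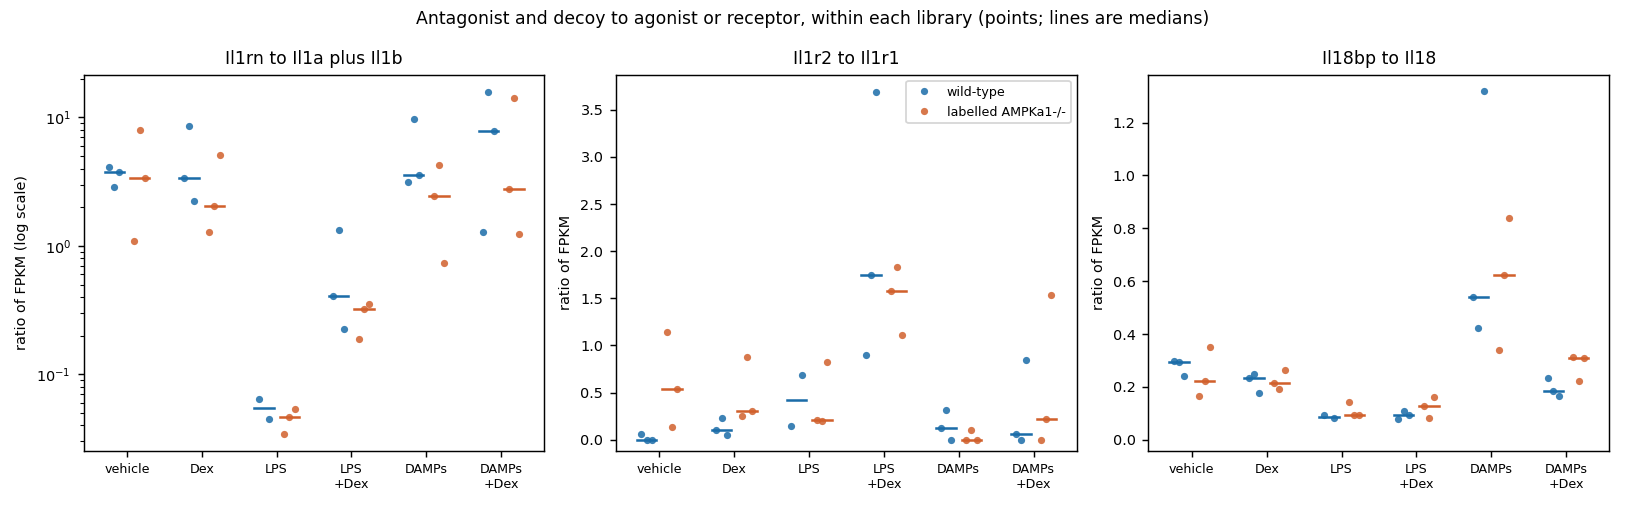
Ratio of FPKM within each library for Il1rn to Il1a plus Il1b (log axis), Il1r2 to Il1r1 and Il18bp to Il18, by treatment, wild-type in blue and libraries labelled AMPKa1-/- in orange, with lines at the medians. The first ratio is lowest in LPS (medians 0.0545 and 0.0464), the second highest in LPS + Dex (1.75 and 1.58) and the third highest in DAMPs (0.542 and 0.624).

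Between the genotypes, 0 of the 6 tested members were called in any treatment (limma, unadjusted p under 0.05 for 2 in vehicle, 1 in LPS, 1 in LPS + Dex, 1 in DAMPs + Dex and 0 in Dex and DAMPs). The share of all genes called was 0.432% in vehicle, 26.5% in Dex, 0.766% in LPS, 0.669% in LPS + Dex, 0.731% in DAMPs and 1.06% in DAMPs + Dex. At an unadjusted p under 0.05 (limma) the share of all genes was 6.17% in vehicle, 42.1% in Dex and 11.4% in LPS. It was 8.11% in LPS + Dex, 7.57% in DAMPs and 9.4% in DAMPs + Dex. In LPS, libraries labelled AMPKa1-/- differed from wild-type by −0.03 for Il1a (95% interval −0.76 to 0.70) and by −0.20 for Il1b (−1.56 to 1.17) on the log2 scale. In LPS + Dex they differed by −0.25 (−0.90 to 0.41) for Il1a and by 0.07 (−1.15 to 1.30) for Il1b. Differences within these intervals were not detectable with this number of libraries.

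Il18 was lower under the AMPKa1-/- label in vehicle, LPS and DAMPs + Dex without overlap, by −0.67 (95% interval −1.26 to −0.08), −0.82 (−1.48 to −0.16) and −0.81 (−1.4 to −0.22), none of which passed the correction (limma adjusted p = 0.66, 0.3 and 0.26). Il18bp in vehicle, at −0.80 (−1.48 to −0.12), and Il1rn in LPS + Dex, at −0.74 (−1.32 to −0.17), likewise did not (adjusted p = 0.6 and 0.34), nor did Il1r1 in Dex, at −0.51 (−0.92 to −0.10), in the fit with no filter (adjusted p = 0.1). In Dex the 6 fibroblast markers summed to 12.3, 15.4 and 25.1 FPKM in wild-type and to 4.14, 4.69 and 3.17 FPKM under the AMPKa1-/- label, 2 of the 4 tested were called lower there, and 5 of 6 tested neutrophil markers were called higher. Their part in the Il1r1 difference was not tested. The change with each treatment was compared between genotypes directly as well. For LPS, Dex with LPS, Dex, DAMPs and Dex with DAMPs, 0 of the 6 members and 0% of all genes were called (limma, unadjusted p under 0.05 for 0 members in each, and for 514, 311, 2441, 66 and 234 genes).

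**Figure D4:**
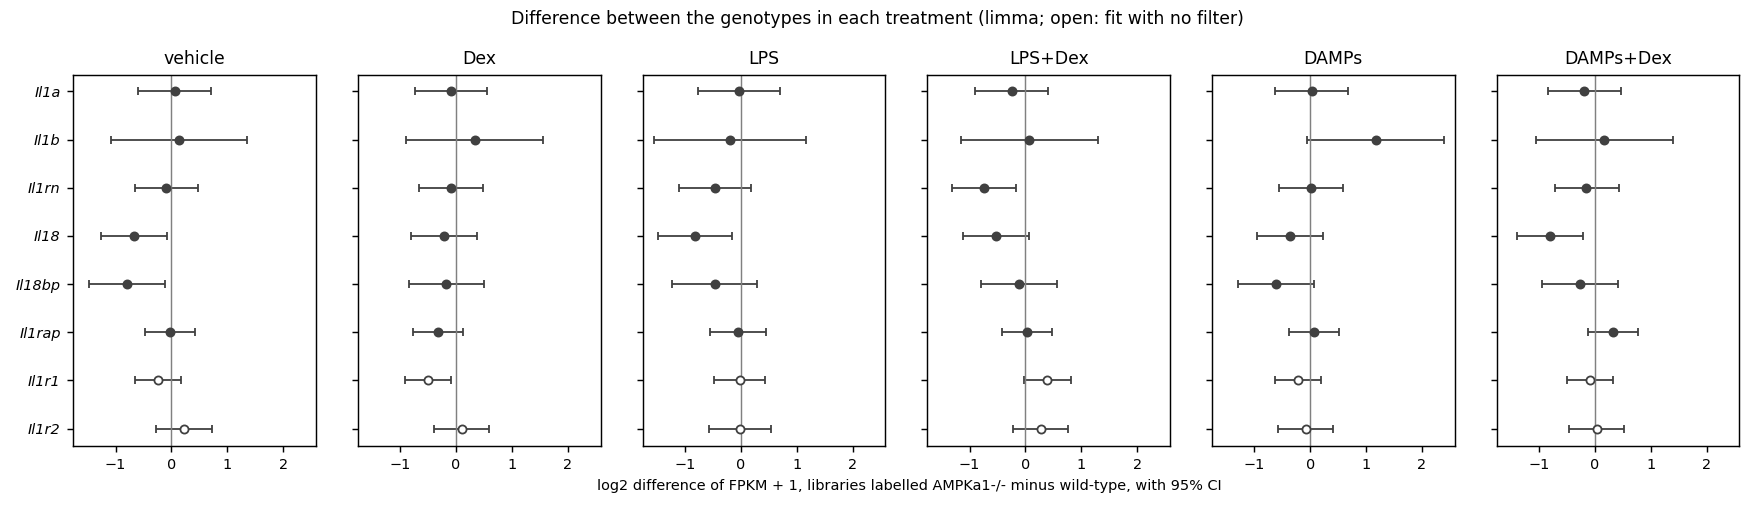
Difference in log2(FPKM + 1) between libraries labelled AMPKa1-/- and wild-type with its 95% confidence interval, for the 8 genes in each treatment, with open points for the fit with no filter. Intervals lie wholly below 0 for Il18 in vehicle, LPS and DAMPs + Dex, Il18bp in vehicle, Il1r1 in Dex and Il1rn in LPS + Dex, and the others include 0.

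Other genes of the same pathway gave a mixed picture. Of 18 genes that carry the IL-1 receptor signal, 7 rose and 6 fell with LPS in each genotype, with a median log2 fold change of 0.14 and −0.10, beside 55.7% and 64.3% of all genes called in either direction. Irak3, an inhibitory kinase-like protein of the receptor complex, was at 19.1, 17.2 and 18.2 FPKM in wild-type vehicle and at 177.2 and 134.5 FPKM in LPS, and rose by 3.02 ± 0.15 (limma adjusted p = 2.0e-15) and 2.80 ± 0.14 (adjusted p = 6.5e-16). Nfkbiz, a nuclear regulator of NF-kB target genes, rose by 2.54 and 2.28, whereas Peli2, a ubiquitin ligase of the pathway, fell (−1.78 and −1.85).

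From LPS to LPS + Dex, 1 of the 18 rose and 4 fell in wild-type and 3 rose and 6 fell under the AMPKa1-/- label, with a median of −0.23 and −0.19, beside 34.1% and 37.7% of all genes called. Traf6, the ubiquitin ligase that relays the receptor signal, was at 24.4 and 21.7 FPKM in wild-type LPS and at 8.15, 5.82 and 4.81 FPKM in LPS + Dex, and fell, with log2 differences of −1.75 ± 0.20 (limma adjusted p = 5.5e-08) and −1.41 ± 0.18 (adjusted p = 2.5e-07). The kinases Ikbkb (−1.0 and −1.12) and Irak2 (−1.05 and −0.93) fell as well. Irak3 was at 173.7, 164.1 and 117.6 FPKM in wild-type LPS + Dex, with a log2 difference of −0.04 (adjusted p = 0.86) and 0.06 (adjusted p = 0.77) from LPS. In Dex alone, 4 of the 18 rose and 2 fell in wild-type, against 1 and 2 under the AMPKa1-/- label, beside 30.9% and 27.9% of all genes.

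Of 9 genes for processing and release of the cytokines, 6 rose and 3 fell with LPS in each genotype, with a median of 0.86 and 0.66, beside the same 55.7% and 64.3% of all genes. Nlrp3, the inflammasome sensor, was at 14.6, 12.3 and 14.0 FPKM in wild-type vehicle and at 78.2 and 74.8 FPKM in LPS, and rose by 2.41 ± 0.21 (limma adjusted p = 8.5e-11) and 2.46 ± 0.18 (adjusted p = 4.2e-12). Pycard, the adaptor that joins sensor and caspase, fell (−1.48 and −1.65), and P2rx7, the ATP-gated channel that triggers release, fell (−2.40 and −2.66).

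With Dex added to LPS, 2 of these 9 rose and 5 fell in wild-type, and 2 rose and 3 fell under the AMPKa1-/- label, with a median of −0.61 and −0.23, beside 34.1% and 37.7% of all genes. Casp1, the protease that matures interleukin-1β and interleukin-18, was at 225.6 and 256.6 FPKM in wild-type LPS and at 85.3, 78.7 and 79.0 FPKM in LPS + Dex. It fell, with log2 differences of −1.56 ± 0.14 (limma adjusted p = 4.9e-10) and −1.67 ± 0.12 (adjusted p = 9.2e-12), and Casp4, which senses intracellular LPS, fell (−1.70 and −1.14). Pycard went from 7.05 and 8.82 FPKM in wild-type LPS to 23.0, 32.3 and 29.2 FPKM in LPS + Dex, a rise of 1.70 ± 0.20 (adjusted p = 1.0e-07) and 1.84 ± 0.18 (adjusted p = 2.4e-09). Dex alone lowered 5 of the 9 in wild-type and 4 under the AMPKa1-/- label, and raised 0, beside 30.9% and 27.9% of all genes. DAMPs raised 2 of the 9 in wild-type and 1 under the AMPKa1-/- label, and of the 18 signalling genes 0 and 1, beside 2.01% and 4.13% of all genes.

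**Figure D5:**
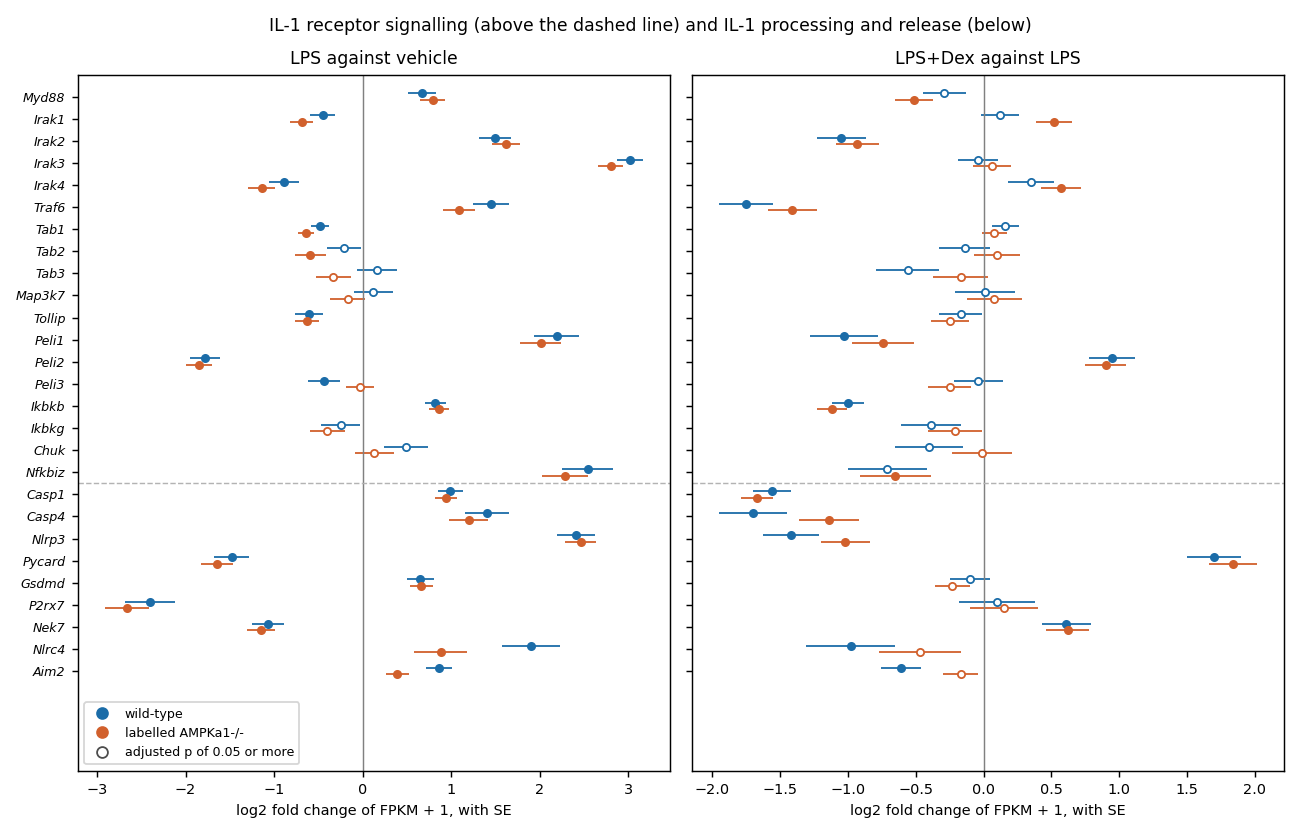
Log2 fold change of FPKM + 1 with its SE for 18 IL-1 receptor signalling genes (above the dashed line) and 9 processing and release genes (below), for LPS against vehicle and LPS + Dex against LPS, with wild-type in blue, libraries labelled AMPKa1-/- in orange and open points for an adjusted p of 0.05 or more. Irak3 and Nlrp3 lie farthest right in LPS among the named genes of their lists, and Pycard moves from left of 0 to right of 0.

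The rest of the family was sparse in these cells. Of 7 other receptors 1 passed the filter, Il1rl2, the receptor of the interleukin-36 cytokines. It was under 1 FPKM in every library without LPS and passed only through the LPS and LPS + Dex libraries, so the filter favoured its call. It was at 0.955, 0.166 and 0.939 FPKM in wild-type vehicle and at 12.6 and 5.35 FPKM in LPS, and rose by 2.50 ± 0.28 (limma adjusted p = 1.7e-08) and 2.96 ± 0.25 (adjusted p = 5.6e-11). In LPS + Dex it was at 7.10, 2.56 and 5.68 FPKM, a difference of −0.69 (adjusted p = 0.062) from LPS in wild-type and −1.09 (adjusted p = 9.4e-04) under the AMPKa1-/- label.

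None of 6 other ligands passed the filter. Its ligand Il36g, chosen after its values were seen, was at 3.91 and 1.81 FPKM in wild-type LPS and at 7.43, 2.55 and 7.87 FPKM in LPS under the AMPKa1-/- label. Il36a, chosen likewise, was at 1.66 and 0.801 FPKM and at 1.87, 0.956 and 2.22 FPKM in the same libraries. Il18rap, of the 7 other receptors and chosen likewise, was highest in LPS + Dex, as Il1r2 was. It was at 0.695, 0.856 and 0.520 FPKM there in wild-type and at 2.42, 1.83 and 0.623 FPKM under the AMPKa1-/- label. In all other libraries it was at 0.2904 FPKM or less.

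Across the 12 group means, the genes whose pattern was most like that of Il1a were Il6 (Pearson r = 0.999), Ptgs2 (0.998) and Ccl22 (0.998). For Il1rn they were Tnf (0.989), Psme2 (0.988) and Morf4l2 (0.987), and for Il1b they were Slco3a1 (0.995), Antxr1 (0.995) and Nfkb2 (0.992). Il18 was most like Aptx (0.969), Psmc6 (0.951) and Gm43042 (0.948), and Il18bp most like Siglec1 (0.953), Mndal (0.929) and Cacnb1 (0.902). Il1rap was most like Hspa4l (0.981) and Rffl (0.968), Il1r2 most like Dus1l (0.995), Ptges2 (0.992) and Gm6209 (0.985), and Il1r1 most like Bdp1 (0.952), Fastkd1 (0.945) and Pla2g6 (0.924). The group means share libraries, depth and treatments, and a few high groups set most of these values, so they are descriptions.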

How the data were processed

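RNA of 35 BMDM libraries was measured, and the deposited tables gave 1 FPKM value per gene and library. Per the submitters' processing notes the authors used Bowtie2 2.2.3, TopHat2 2.0.12 and HTSeq 0.6.1 on GRCm38, while neither source states the strand setting or the annotation release. Groups followed the labels. The study's methods describe cultures from individual mice, and p-values measure the spread between these libraries. Symbols came from GENCODE M21, which named 46488 of 47069 identifiers. The members and gene lists were chosen with earlier results of these data known.

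Log2(FPKM + 1) of the 11354 genes with a mean of at least 1 FPKM was fitted over 12 groups with limma 3.58.1 (R 4.3.3, trended empirical Bayes, two-sided, Benjamini-Hochberg, threshold 0.05). A fold change on this scale understates that of low genes. Il1r1 and Il1r2 failed the filter and were tested among 27414 genes with no filter. The fit was tested on simulated data, and no outcome of that test is reported here. Total fragments and members' whole fragments were recovered from FPKM steps, with 1 fragment on 1 kb worth 0.0313 to 0.0631 FPKM and a floor of 3 fragments, which covers counting error only. Replicates correlated at r of 0.967 to 0.993, and no 2 libraries were copies. Named genes were the 8 members, up to 3 of each pathway list with the smallest p for LPS and for LPS + Dex against LPS in wild-type, all label-check genes, and the 3 genes most like each member by Pearson's r over 12 group means, of which 1 is not reported here. Alternatives were an added 0.1 FPKM, a mean of at least 5 FPKM or no filter, median centring, quantile normalization, fits on fewer groups, a replicate block and leaving out each library. Replicate numbers deviated together (every r over 0.1 across 3 pairs) in 7 of 25 pairs of treatments within a genotype. In libraries labelled AMPKa1-/- these were vehicle with Dex, LPS and LPS + Dex, and LPS with LPS + Dex. In wild-type they were Dex with LPS + Dex and with DAMPs, and LPS + Dex with DAMPs. For these pairs of treatments the numbers count as pairing, whereas the main fit held no block and the replicate block was an alternative. Python 3.11.15 was used for tables and figures.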

Additional observations from a re-analysis of the deposited data

How the results depend on the processing

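No member changed sign where it was called. Of 65 calls of a member in a comparison, 47 held under every alternative and 18 were lost under at least 1, and 8 others were called only under an alternative. An added 0.1 FPKM, a mean of at least 5 FPKM, median centring and quantile normalization moved no count of called members by over 1.5 times, but Il18bp with LPS under the AMPKa1-/- label was called with centring (adjusted p = 0.015), quantile normalization (adjusted p = 0.0097) and an added 0.1 FPKM (adjusted p = 0.038), with 0.0072 to 0.24 over all its alternatives. Il1rap in LPS + Dex against vehicle was called with quantile normalization (adjusted p = 0.024 in wild-type and 0.0052 under the AMPKa1-/- label), and under that label also with median centring (adjusted p = 0.026), where the highest value over its alternatives was 0.91 and 0.72.

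The count of 1 for DAMPs in wild-type was 0 with no filter, with only the groups compared and with only 1 genotype. With LPS + Dex against vehicle under the AMPKa1-/- label the 3 called members became 5 with no filter, which added Il1r1 and Il1r2 to the genes tested, and 6 with only the groups compared, and the 2 for Dex there became 1 with no filter. Leaving out 1 library gave 0 to 1 members for DAMPs in wild-type (0 without vehicle replicate 2 or 3 or DAMPs replicate 3), 1 to 3 for Dex in wild-type (1 without vehicle replicate 2 or Dex replicate 1 or 2), 1 to 2 for Dex under the AMPKa1-/- label (1 without Dex replicate 2, while without vehicle replicate 1 or Dex replicate 3 Il18 was called and Il1b was not) and 2 to 4 for DAMPs + Dex under that label (2 without DAMPs replicate 2 or DAMPs + Dex replicate 1). The cause was not tested. The replicate block, fitted to 19 comparisons, changed 1 call, that of Il18 with Dex under the AMPKa1-/- label (adjusted p = 0.023), and moved no count of called members by over 1.5 times. The 6 comparisons between genotypes have no shared numbers to block. Depth limits Il1r2, which had 18 fragments or fewer in every library outside LPS + Dex, Il1a outside LPS, and Il1b in Dex and DAMPs + Dex, where it had 25 fragments or fewer.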
